A study of Caenorhabditis briggsae with 9 samples.

Results

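Of the 22922 gene identifiers in the count table of this Caenorhabditis briggsae series, 80 had no Cbr- gene symbol and were raised in every library of both mutant strains, and they are described here. They were chosen by level in CPM, the count divided by the total of its library and scaled to a common depth. A gene was taken if it carried no symbol in the RefSeq gene table of C. briggsae, reached at least 1 CPM in all 6 mutant libraries, and was in each of them at least 2 times as high as in the highest wild-type library. The choice thus used the difference between each mutant and wild type, so the size of that difference is given below as a description, without a test. The comparison of the mutants with each other, the position of the genes and the values of genes beside them were not part of the choice.

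Whole L3 larvae of 3 strains gave 3 RNA-seq libraries per strain. Strain gu167 carries an allele of Cbr-htz-1, also named Cbr-ivp-2. Strain gu163 carries an allele of Cbr-spr-4, also named Cbr-ivp-1. AF16 is the wild-type isolate, and what the 2 alleles change in their genes is not stated in the labels. All animals were grown at 20 degrees after bleaching and synchronizing in 2 rounds, and were collected shortly before their vulval precursor cells divide. Replicates are independent and biological, per the labels.

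HTZ-1 is the histone variant H2A.Z, which replaces H2A in some nucleosomes, often near gene starts. In C. elegans, SPR-4 is a zinc-finger protein found through suppressors of a presenilin mutant. An L3 larva holds a dividing germline that has not yet made oocytes. Also in C. elegans, germline genes are scarce on the X chromosome, and adjacent genes are often read together from 1 operon. Genes without a symbol have, as a rule, no assigned counterpart with a standard name, and no function was assigned to any of them here.

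Library totals lay between 8294524 and 14095189 counts, so that 1 CPM stood for 8.29 to 14.1 counts. AF16 replicate 3 and gu167 replicate 3 had the lowest and the highest TMM scaling factor, 0.746 and 1.20. Cbr-htz-1 RNA was present in all strains, with 58.7, 70.7 and 69.0 CPM in gu167, 56.2, 55.01 and 56.7 CPM in gu163, against 62.5, 57.1 and 58.7 CPM in AF16. Cbr-spr-4 stood at 146, 175 and 173 CPM in gu167, 221, 229 and 265 CPM in gu163, against 90.8, 112.7 and 89.4 CPM in AF16. Neither gene lost its RNA in the strain named for it, so RNA level does not check the strain labels. In RNA of whole animals, fewer cells of a type and less RNA per cell cannot be told apart.

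Most of the 80 genes had few counts in wild type, and their levels in AF16 and in the mutants spanned a wide range. Their mean level had a median of 6.52 CPM in gu167 (1.17 to 83.6), 6.03 CPM in gu163 (1.53 to 48.0) and 0.651 CPM in AF16 (0.0623 to 9.27). The AF16 mean lay under 1 CPM for 55 of them and under 0.5 CPM for 31, while 11 reached 2 CPM or more. Over the 3 AF16 libraries together the genes had 2 to 296 counts, with a median of 21, against 107 to 3675 counts over the 6 mutant libraries, with a median of 421. No gene was at 0 in all AF16 libraries, 12 were at 0 in at least 1, and 1 was at 0 in 2. The wild-type baseline of a typical member therefore rests on few reads, and its fold change is less precise than its mutant level.

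The ratio of mean CPM to AF16 had a median of 9.18 in gu167 (2.51 to 116) and 9.24 in gu163 (2.61 to 72.6). The fitted log2 fold changes of edgeR had a median of 2.94 in gu167 (1.04 to 6.45) and 3.04 in gu163 (1.20 to 5.95), against medians of -0.02 and -0.01 over the 12507 genes tested. Both series of ratios use the same AF16 libraries. All 80 genes passed the filter on low counts, all are annotated as protein coding, and all were found in the gene table of assembly CB4. The members made up 1.27% of the 6320 genes without a symbol at 1 CPM or more in all mutant libraries. Among 4585 genes with a symbol at that level, 54 met the same numbers, or 1.18%. Over both classes 134 genes met them, which is 1.23% of the genes at that level. The shares with and without a symbol were close. With the rule turned round (at least 1 CPM in all AF16 libraries and every mutant library at no more than 1/2 of the lowest AF16 library), no gene was found with or without a symbol. Both rules and the ratios of mean CPM used library totals. On that scale the other genes without a symbol at that level had median ratios to AF16 of 1.21 in gu167 and 1.11 in gu163. That scale thus favours rises over falls.

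**Figure D1:**
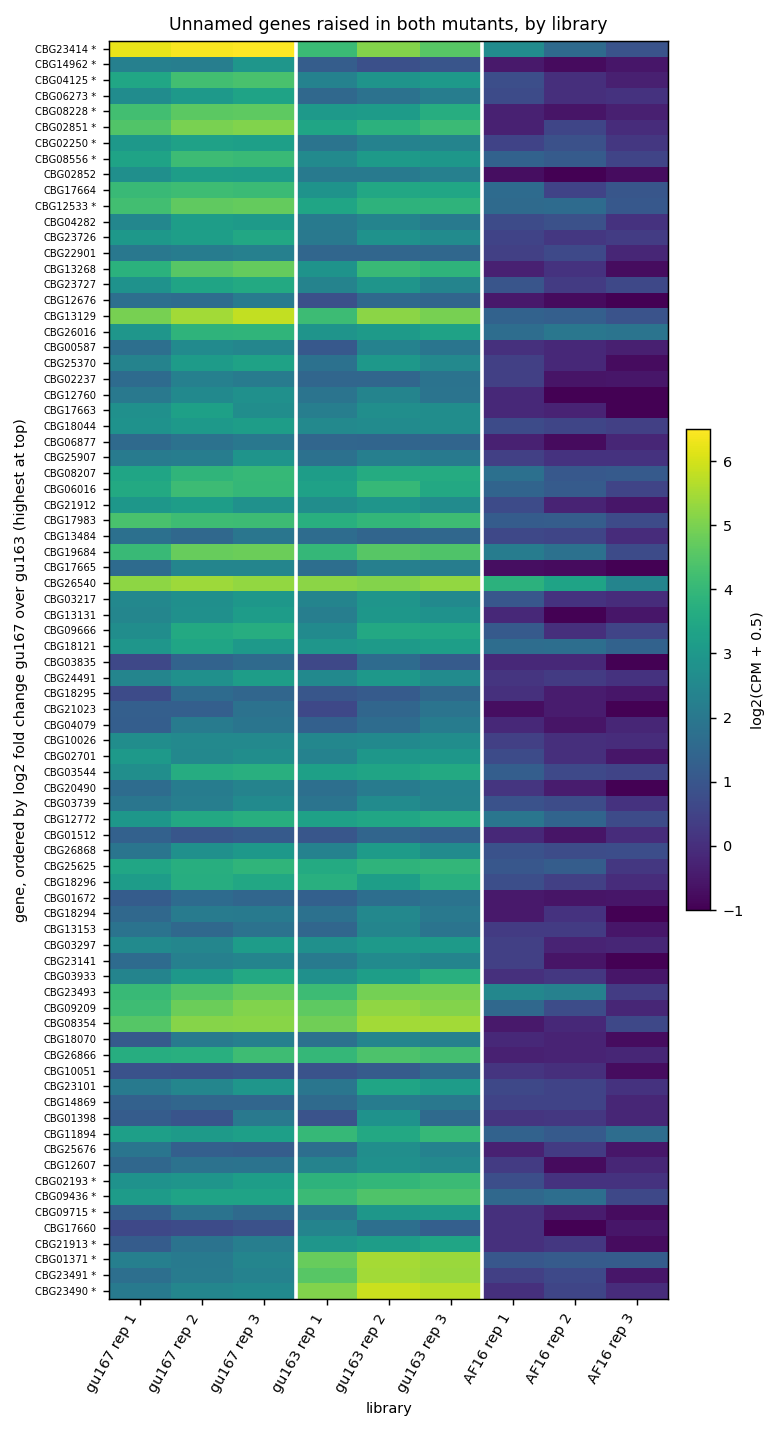
Level of the 80 genes in each of the 9 libraries, as log2(CPM + 0.5), with 1 line per gene, ordered by the fold change of gu167 over gu163; stars mark genes called between the mutants by edgeR at adjusted p under 0.05. The gap between mutant and AF16 columns is set by the choice of genes, while the bright blocks of CBG23414 in gu167 and of CBG23490, CBG23491 and CBG01371 in gu163 show differences between the mutants.

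The rule's limits divided a continuous range of values. The lowest mutant library over the highest AF16 library had a median ratio of 3.57 and a maximum of 35.3 among members, and lay under 2.5 in 16 of them. Just inside were CBG17660 with a ratio of 2.01, CBG26016 with 2.02 and CBG10051 with 2.05. Just outside were CBG12493 with 1.99, CBG08229 with 1.98 and CBG03826 with 1.93. A further 20 genes without a symbol passed the ratio but had 0.5 to 1 CPM in their lowest mutant library, where the lowest such value of a member was 1.03 CPM. The genes just inside and just outside the limit of the ratio thus differed little in that ratio. Their levels varied on both sides, with AF16 means of 0.236 to 3.10 CPM inside and 0.388 to 2.43 CPM outside.

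The highest members were well above 10 CPM in the mutants. CBG26540 had 37.1, 41.9 and 38.7 CPM in gu167, 36.1, 33.8 and 38.6 CPM in gu163, against 13.5, 9.62 and 4.69 CPM in AF16. It had the highest AF16 mean of all members (9.27 ± 4.41 CPM, SD, n = 3), and its means in gu167 and gu163 were 4.23 and 3.90 times that level. The 6 mutant libraries of this gene lay close together, and its wild-type libraries were spread more widely than those of either mutant.

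CBG13129 had 30.7, 43.5 and 55.5 CPM in gu167, 16.97, 36.3 and 30.6 CPM in gu163, against 2.08, 1.91 and 1.41 CPM in AF16. Its mean was 24.0 times the AF16 mean in gu167 and 15.6 times in gu163. The libraries of the mutants overlapped, and replicate 1 was the lowest of its group in each mutant. CBG08354 had 22.3, 34.5 and 35.7 CPM in gu167, 28.9, 43.6 and 43.1 CPM in gu163, against 0.208, 0.415 and 1.03 CPM in AF16. Those levels amounted to 55.9 and 69.9 times its AF16 mean, and the mutants again overlapped. CBG09209 showed 17.5, 27.6 and 33.5 CPM in gu167, 24.3, 37.6 and 33.9 CPM in gu163, against 2.39, 1.16 and 0.375 CPM in AF16, or 20.0 and 24.4 times its AF16 mean. As for the 2 genes before, replicate 1 was the lowest library of each mutant.

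That order of libraries held for most members. Replicate 1 was the lowest gu167 library for 63 of 80 members and the lowest gu163 library for 69, and AF16 replicate 3 was the lowest AF16 library for 54. Over all genes tested these libraries were the lowest of their group for 69.8%, 67.3% and 67.5% of genes, against 78.8%, 86.2% and 67.5% of members. On TMM-scaled CPM the counts of members were 49, 45 and 45, and the shares of all genes on that scale were not counted. The summed level of the 80 genes was 645, 851 and 928 CPM in gu167, 606, 885 and 850.4 CPM in gu163, against 107, 81.2 and 51.5 CPM in AF16. What sets these libraries apart was not tested.

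Members with the widest gap to wild type were close to 0 in AF16. CBG26866 had 12.2, 12.8 and 17.4 CPM in gu167, 15.4, 20.8 and 18.5 CPM in gu163, against 0.312, 0.332 and 0.375 CPM in AF16. The AF16 libraries of this gene were nearly level, and its means were 41.6 and 53.7 times theirs. CBG13268 showed 13.4, 23.1 and 26.2 CPM in gu167, 6.65, 16.4 and 14.2 CPM in gu163, against 0.312, 0.580 and 0.0939 CPM in AF16, which is 63.5 and 37.8 times the AF16 mean. Within each mutant its libraries differed by more than those of CBG26866.

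For 3 members AF16 held only 2 or 3 counts in all, and a ratio of counts with its exact 95% interval is given for them in place of a fold. These intervals cover counting error only. CBG02852 had 6.10, 8.58 and 8.32 CPM in gu167, 3.67, 3.76 and 4.29 CPM in gu163, against 0.104, 0 and 0.0939 CPM in AF16, where 2 counts were seen in all. Its count ratio to AF16, per unit of depth, was 123.5 in gu167 (33.8 to 1025) and 63.6 in gu163 (17.2 to 531). CBG17665, also with 2 AF16 counts, had 2.57, 4.82 and 4.82 CPM in gu167 and 2.75, 4.22 and 4.03 CPM in gu163, with ratios of 64.98 (17.7 to 542) and 60.5 (16.4 to 505). CBG12676, with 3 AF16 counts, had 2.81, 2.63 and 3.86 CPM in gu167 and 1.26, 2.48 and 2.23 CPM in gu163, with ratios of 32.2 (10.7 to 159) and 22.1 (7.21 to 110). The intervals are wide for all 3 genes, and as the genes were chosen on these counts the ratios are a description.

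The question of whether the mutants raised these genes to the same level can be tested, because the rule treated both mutants alike. For 64 of 80 members the mutant means lay within 2-fold of each other, and the median log2 fold change of gu167 over gu163 was -0.04, against 0.02 over all genes tested. In edgeR's quasi-likelihood test at adjusted p under 0.05 (Benjamini-Hochberg over 12507 genes), 9 members (11.2%) were higher in gu167 than in gu163, where 5.13% of all genes were. Another 7 (8.75%) were lower in gu167, where 8.33% of all genes were. Either way, 20.0% of members were called, against 13.5% of all genes, 13.2% of the other 6240 genes without a symbol at the same minimum, and 7 of the 54 genes with a symbol that met the rule's numbers (12.96%). The libraries of the mutants did not overlap for 17 members higher in gu167 (21.2%, against 18.9% of all genes) and for 11 higher in gu163 (13.8%, against 15.4%). A missed call does not show that the mutants were alike for the other 64 members.

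The number called higher in gu167 moved with single libraries. It was 3 without gu163 replicate 1, 5 without gu163 replicate 2, 4 without gu163 replicate 3, 3 without gu167 replicate 2 and 2 without gu167 replicate 3. It was also 3 with library totals as the only scaling. The 7 called lower became 6 to 9 when single libraries were left out, and 4 with library totals only. The share of all genes called in these fits was not counted. A loss of calls over all genes thus cannot be told from a loss among members.

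**Figure D2:**
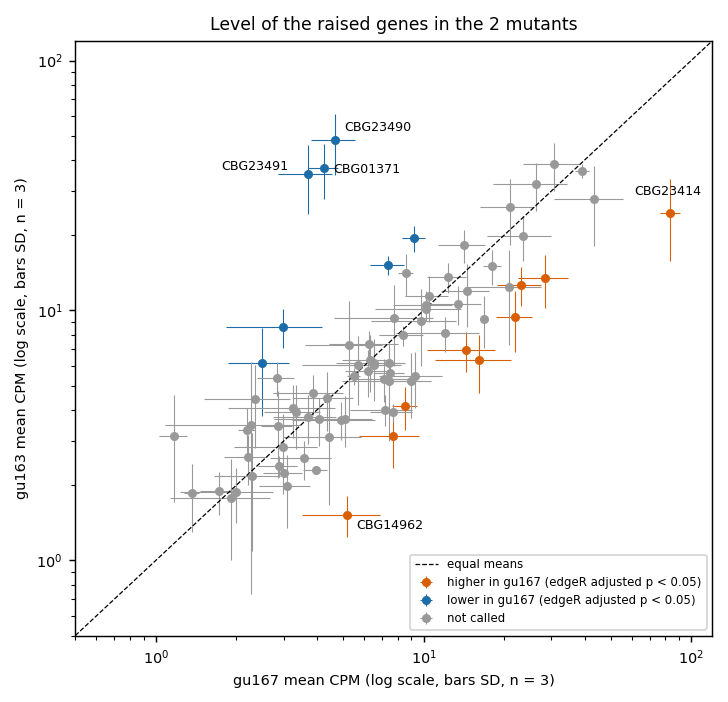
Mean CPM of each of the 80 genes in gu167 (horizontal) and gu163 (vertical), both on log axes, with bars for the SD of 3 libraries; colours mark edgeR calls between the mutants and the broken line marks equal means. Most genes lie along the line, with CBG23490, CBG23491 and CBG01371 far above it and CBG23414 below it.

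The largest differences between the mutants favoured gu163. CBG23490 had 3.69, 4.90 and 5.43 CPM in gu167, 33.2, 58.8 and 51.99 CPM in gu163, against 0.519, 0.995 and 0.469 CPM in AF16. Its mean was 7.07 times the AF16 mean in gu167 and 72.6 times in gu163, and the mutants differed by a log2 fold change of -3.46 ± 0.22 (SE; edgeR adjusted p = 2.16e-05). CBG23491, the gene next to it, had 2.81, 3.83 and 4.46 CPM in gu167, 22.7, 43.0 and 39.7 CPM in gu163, against 0.831, 1.08 and 0.188 CPM in AF16. The difference between the mutants was -3.34 ± 0.30 for this gene (adjusted p = 0.000269, edgeR). For both neighbours the lowest gu163 library lay above the highest gu167 library by a wide margin.

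CBG01371 had 4.18, 3.76 and 4.82 CPM in gu167, 26.6, 44.1 and 40.7 CPM in gu163, against 1.56, 1.74 and 1.78 CPM in AF16. With 2.51 times the AF16 mean it had the smallest gu167 ratio of all members, beside 21.9 times in gu163, and the mutants differed by -3.21 ± 0.21 (edgeR adjusted p = 2.16e-05). CBG02193 had 6.51, 7.02 and 8.56 CPM in gu167, 13.99, 15.04 and 16.6 CPM in gu163, against 1.25, 0.580 and 0.563 CPM in AF16, a difference of -1.16 ± 0.21 (edgeR adjusted p = 0.00866). CBG09436 had 8.19, 9.72 and 9.77 CPM in gu167, 16.9, 21.3 and 20.3 CPM in gu163, against 2.39, 2.74 and 1.03 CPM in AF16, a difference of -1.18 ± 0.21 (edgeR adjusted p = 0.00832, but 0.0547 with library totals only). None of these 3 genes had overlapping mutant libraries. CBG21913 was also lower in gu167, by -1.66 ± 0.33 (edgeR adjusted p = 0.0118, but 0.0554 with library totals only). CBG09715 was lower by -1.38 ± 0.33 (edgeR adjusted p = 0.0240), a call lost without gu163 replicate 2 or 3 or any gu167 library (adjusted p 0.0586 to 0.0974). It was also lost with library totals only (0.0959). CBG02193, CBG21913 and CBG09715 are named here, outside the naming rule, because they complete the 7.

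CBG23414 had in gu167 the highest mean level of any member in any strain, while other members were higher in gu163 and in AF16. It had 75.98, 85.1 and 89.7 CPM in gu167, 16.6, 34.1 and 23.1 CPM in gu163, against 5.61, 2.49 and 1.41 CPM in AF16. Its mean was 26.4 times the AF16 mean in gu167 and 7.77 times in gu163, and the mutants differed by a log2 fold change of 1.68 ± 0.29 (edgeR adjusted p = 0.00732). Every gu167 library lay more than 2-fold above every gu163 library.

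CBG08228 had 18.2, 23.6 and 24.4 CPM in gu167, 7.80, 8.07 and 12.4 CPM in gu163, against 0.312, 0.166 and 0.282 CPM in AF16, and was higher in gu167 by 1.11 ± 0.21 (edgeR adjusted p = 0.00984). CBG14962 had 4.34, 4.11 and 7.11 CPM in gu167, 1.83, 1.28 and 1.46 CPM in gu163, against 0.208, 0.0829 and 0.188 CPM in AF16, a difference of 1.63 ± 0.34 (edgeR adjusted p = 0.0130). Its call was lost without gu163 replicate 3 (0.0574) or gu167 replicate 3 (0.0530). CBG12533, with 18.2, 24.9 and 26.2 CPM in gu167, 10.1, 13.8 and 14.2 CPM in gu163, against 2.49, 2.57 and 1.60 CPM in AF16, differed by 0.75 ± 0.16 (edgeR adjusted p = 0.0161). That call was lost without gu163 replicate 1 (0.0644), gu167 replicate 2 (0.0753) or gu167 replicate 3 (0.0634), and with library totals only (0.0689). The mutant libraries of these 3 genes did not overlap.

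The other 5 calls in this direction, named after their values were seen, were the least stable. CBG04125 was higher in gu167 by 1.22 ± 0.30 (edgeR adjusted p = 0.0244), and its call was lost without any gu163 library, gu167 replicate 2 or gu167 replicate 3 (0.0555 to 0.0953). CBG06273 was higher by 1.16 ± 0.28 (edgeR adjusted p = 0.0226), lost without gu163 replicate 1 or 2 or gu167 replicate 2 or 3 (0.0700 to 0.0839). CBG02851 was higher by 0.97 ± 0.24 (edgeR adjusted p = 0.0263), lost without any gu163 library, gu167 replicate 2 or gu167 replicate 3 (0.0508 to 0.101). CBG02250 was higher by 0.94 ± 0.23 (edgeR adjusted p = 0.0226), lost without any single mutant library (0.0557 to 0.0925). CBG08556 was higher by 0.94 ± 0.22 (edgeR adjusted p = 0.0228), lost without gu163 replicate 1 or 3 or gu167 replicate 2 or 3 (0.0757 to 0.104). All 5 were also lost with library totals only (0.0554 to 0.0768). In each of the 5 genes the gu167 libraries all lay above the gu163 libraries, as they did for 18.9% of all genes tested. These genes were picked by their calls on the same libraries, so that is a description. Of the 16 calls between the mutants, those of CBG01371, CBG02193, CBG08228, CBG23414, CBG23490 and CBG23491 were kept under all 18 alternative fits. At an adjusted p under 0.0005, the calls of CBG01371, CBG23490 and CBG23491 remained.

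Many members sat side by side on the chromosomes. Gene order was taken from the CB4 table, and 99.5% of consecutive gene lines of the count table are neighbours in it. In that order 20 of 80 members (25%) were next to another member, while 48 of 6135 other genes without a symbol at the same minimum (0.782%) were next to one. They formed 9 groups, of which 2 held 3 members and 7 held 2. When genes with a symbol that met the same numbers were included, 25 members were next to a raised gene.

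One group of 3 comprised CBG17664, CBG17665 and CBG17663. CBG17664 had 16.4, 17.5 and 16.6 CPM in gu167, 6.76, 10.7 and 10.3 CPM in gu163, against 2.60, 0.912 and 1.502 CPM in AF16. CBG17663 had 6.34, 9.15 and 5.91 CPM in gu167, 4.13, 5.96 and 5.92 CPM in gu163, against 0.415, 0.332 and 0 CPM in AF16. Mutant and AF16 libraries of the group were apart by choice, and no member of it was called between the mutants. The spans of CBG17664 and CBG17665 overlap in CB4, and since the strand setting of the counting is not given, reads of overlapping genes cannot be told apart. CBG17666, the non-member on the other side of CBG17664, had 2.09, 2.55 and 3.13 CPM in gu167, 0.802, 1.19 and 1.29 CPM in gu163, against 1 count in all of AF16. Its count ratios to AF16 were 81.7 in gu167 (14.3 to 3263) and 36.2 in gu163 (6.08 to 1469), and edgeR called it higher in each mutant (adjusted p = 0.000933 and 0.00342). It missed the rule only through the 1 CPM minimum in gu163 replicate 1. CBG17660 lies 2 genes beyond the group and overlaps Cbr-col-14, a cuticle collagen. It had 1.04, 1.14 and 1.33 CPM in gu167, 4.70, 2.84 and 1.89 CPM in gu163, against 0.519, 0 and 0.188 CPM in AF16.

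The second group of 3 was CBG18296, CBG18295 and CBG18294, in which no spans overlap. CBG18296 had 8.35, 12.1 and 10.9 CPM in gu167, 12.7, 8.62 and 12.8 CPM in gu163, against 1.25, 0.829 and 0.469 CPM in AF16. CBG18295 had 1.12, 2.55 and 2.29 CPM in gu167, 1.49, 1.74 and 2.40 CPM in gu163, against 0.519, 0.249 and 0.188 CPM in AF16. CBG18294 had 2.41, 3.83 and 3.74 CPM in gu167, 2.98, 5.13 and 3.603 CPM in gu163, against 0.208, 0.580 and 0 CPM in AF16. The mutant libraries of the 3 genes overlapped. The genes on either side, CBG18297 and Cbr-athp-1, had log2 fold changes of 0.34 ± 0.24 and 0.41 ± 0.17 in gu167 and of 0.27 ± 0.24 and 0.16 ± 0.18 in gu163, with no call in edgeR (adjusted p 0.306 to 0.637).

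The pair CBG23491 and CBG23490 belonged to a wider stretch. In gene order it runs CBG23493, CBG23492, CBG23491, CBG23490 and Cbr-srh-25, of which the last encodes a chemoreceptor of the serpentine class H. CBG23493, a member, had 16.06, 21.4 and 25.8 CPM in gu167, 17.2, 29.98 and 30.5 CPM in gu163, against 5.09, 4.39 and 0.751 CPM in AF16, with no call between the mutants (log2 fold change -0.40 ± 0.36, edgeR adjusted p = 0.510). CBG23492, between 2 members, had 0.562, 0.851 and 0.844 CPM in gu167, 28.7, 56.7 and 58.5 CPM in gu163, against 0.208, 0.166 and 0.375 CPM in AF16. It rose in gu163 by 7.34 ± 0.36 (edgeR adjusted p = 4e-06), had 1.28 ± 0.49 in gu167 (adjusted p = 0.254), and differed between the mutants by -6.06 ± 0.31 (adjusted p = 6.43e-06). Cbr-srh-25 had 3.45, 7.45 and 5.79 CPM in gu167, 19.8, 25.9 and 28.7 CPM in gu163, against 2.08, 3.32 and 2.16 CPM in AF16. Its log2 fold change was 0.84 ± 0.28 in gu167 (edgeR adjusted p = 0.186) and 3.11 ± 0.28 in gu163 (adjusted p = 0.00012), and the mutants differed by -2.27 ± 0.26 (adjusted p = 0.0012). The 4 adjacent genes from CBG23492 to Cbr-srh-25 were thus all lower in gu167 than in gu163, and the next gene beyond Cbr-srh-25, CBG23488, was called in neither mutant (adjusted p = 0.384 and 0.195).

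In the remaining groups the difference between the mutants was set side by side for the members of a pair, and whether the members of a pair differ from each other was not tested. CBG02851 had 21.6, 31.1 and 32.9 CPM in gu167, 10.2, 13.6 and 16.6 CPM in gu163, against 0.312, 0.995 and 0.469 CPM in AF16. It differed between the mutants by 0.97 on the log2 scale (edgeR adjusted p = 0.0263). CBG02852, whose span overlaps it, differed by 0.85 and was not called (edgeR adjusted p = 0.0612). CBG23726 had 7.47, 8.66 and 10.9 CPM in gu167, 3.55, 6.51 and 5.66 CPM in gu163, against 0.935, 0.663 and 0.751 CPM in AF16. CBG23727 beside it had 6.59, 9.86 and 11.3 CPM in gu167, 4.59, 7.06 and 4.72 CPM in gu163, against 1.45, 0.746 and 1.03 CPM in AF16. The log2 differences of this pair were 0.67 and 0.64, and neither gene was called (edgeR adjusted p = 0.0756 and 0.129). CBG21912 and CBG21913 had differences of opposite sign. The first had 7.39, 8.58 and 6.39 CPM in gu167 and 5.85, 7.06 and 5.66 CPM in gu163, and the second 1.77, 3.12 and 4.10 CPM in gu167 and 7.11, 8.53 and 10.2 CPM in gu163. Their log2 differences were 0.18 ± 0.33 (edgeR adjusted p = 0.773) and -1.66 ± 0.33 (adjusted p = 0.0118). Like CBG23726 and CBG23727, the other 3 pairs held no gene called between the mutants. Their log2 differences were 0.44 and 0.31 for CBG26016 and CBG06877, and 0.39 and 0.34 for CBG25370 and CBG12760. CBG10051 and CBG25907 had opposite signs, with -0.55 and 0.30.

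**Figure D3:**
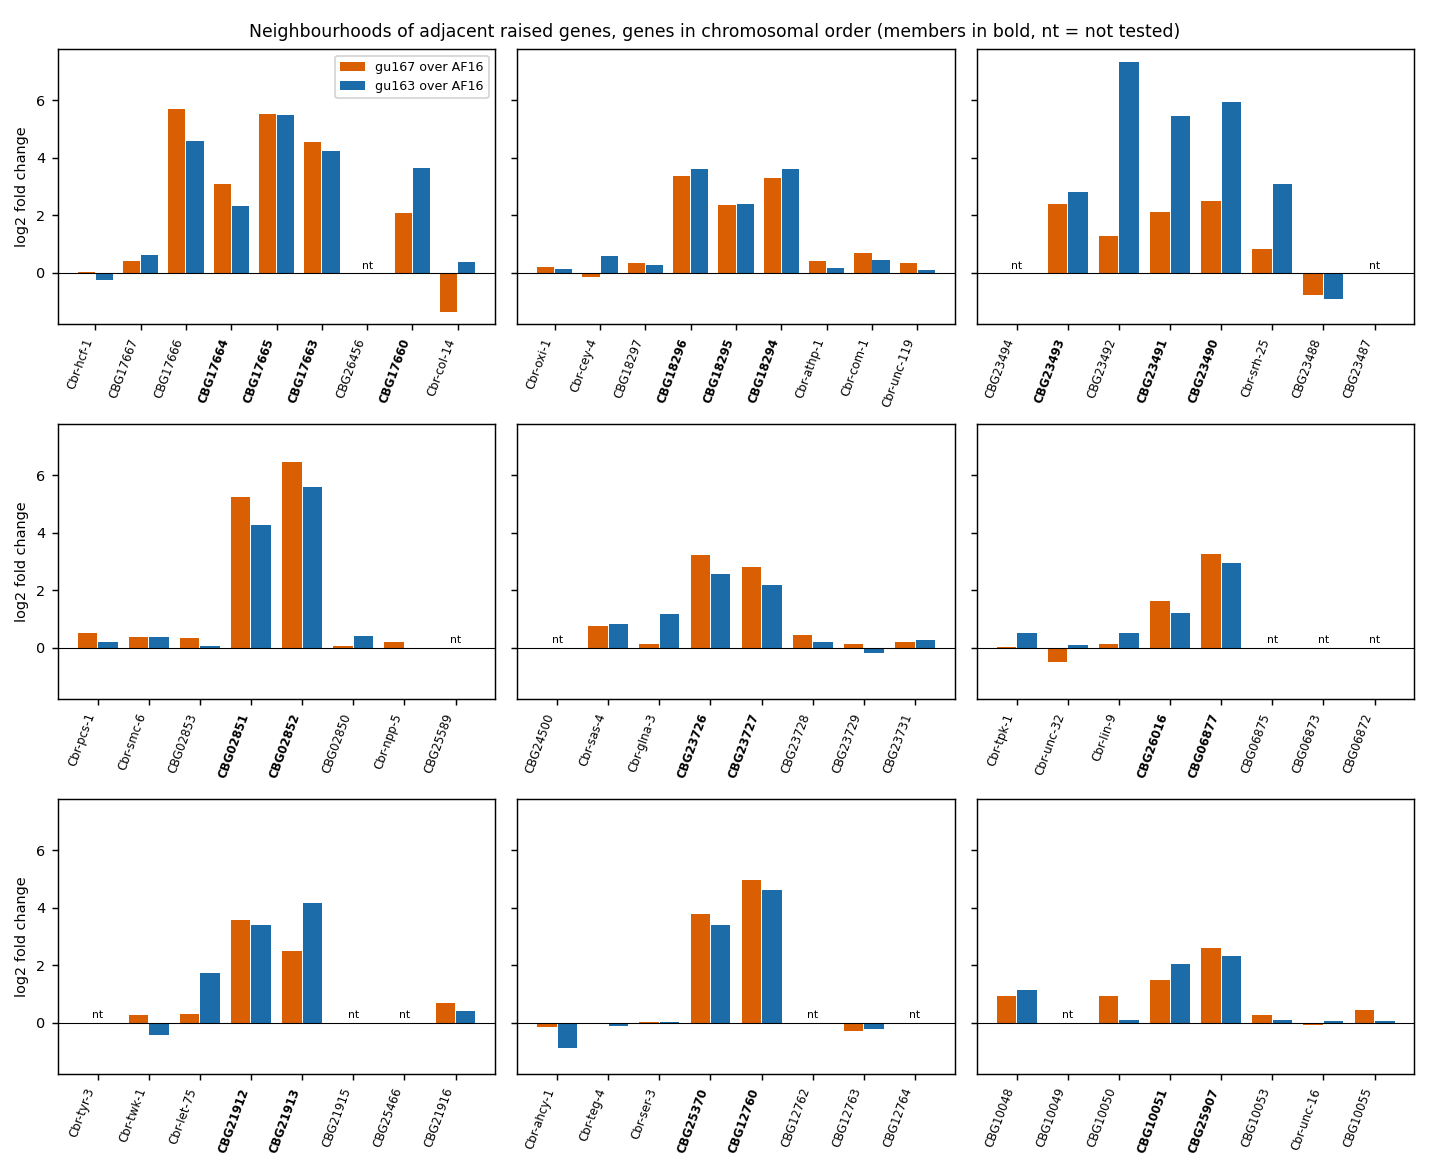
Fitted log2 fold change over AF16 of the genes in and around the 9 groups of adjacent members (bold), in chromosomal order, with gu167 and gu163 as paired bars sharing the AF16 libraries; nt marks genes with too few counts to be tested. The bars of CBG02852 and CBG17665 (2 AF16 counts) and of CBG17666 (1 AF16 count) are loosely set, and the flanking genes range from -1.35 (Cbr-col-14 in gu167) to 7.34 (CBG23492 in gu163).

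Genes beside members could be tested against AF16, since the rule did not choose them. There were 134 such non-member neighbours, of which 97 had enough counts, 38 of these with a symbol. Because genes without a symbol that met the rule had been taken out of this set, its counts understate shared rises. Genes with a symbol stayed in the set, and 5 of them met the same numbers as the members. In gu167, 15 of 97 neighbours (15.5%) were called higher by edgeR, where 1.97% of all genes were. None was called lower, where 0.128% of all genes were, and 1 was lower at an unadjusted p under 0.05. DESeq2 and limma-voom also called none lower in gu167. In gu163, 24 of 97 (24.7%) were higher, where 6.36% of all genes were, and 3 were lower, where 2.94% were. The median log2 fold change of the 97 genes was 0.30 in gu167 and 0.24 in gu163, from comparisons that share the AF16 libraries. The number higher in gu163 was 14 without gu163 replicate 3 and 17 with library totals only. The number lower was 1 without AF16 replicate 1, 0 without gu163 replicate 2 or 3, and 0 with library totals only. For these fits the share of all genes called was not counted.

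The neighbours called higher in both mutants with the smallest p are given next, apart from CBG17666, given above. They are the 5 genes with a symbol that met the same numbers as the members. Cbr-puf-8, a Pumilio-family RNA-binding protein, lies between the members CBG13129 and CBG13131. It had 23.0, 21.99 and 29.1 CPM in gu167, 17.4, 24.1 and 22.3 CPM in gu163, against 2.08, 1.24 and 1.41 CPM in AF16. The gene rose by 3.70 ± 0.21 in gu167 (edgeR adjusted p = 1.66e-05) and by 3.59 ± 0.21 in gu163 (adjusted p = 9.32e-06), on the log2 scale. CBG13131 on its other side had 4.90, 6.31 and 8.32 CPM in gu167, 4.13, 7.33 and 6.61 CPM in gu163, against 0.415, 0 and 0.188 CPM in AF16. Like CBG13129 it was chosen for its gap to AF16, so of these 3 adjacent genes the rise was tested for Cbr-puf-8 alone.

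Cbr-htp-3, a protein of the meiotic chromosome axis, is beside CBG04125. Its levels were 15.3, 22.6 and 24.2 CPM in gu167, 8.94, 14.4 and 14.2 CPM in gu163, against 3.84, 1.49 and 2.44 CPM in AF16. It rose by 2.73 ± 0.29 in gu167 (edgeR adjusted p = 0.000678) and by 2.11 ± 0.29 in gu163 (adjusted p = 0.00184), with no overlap with AF16. Cbr-klp-16.1 and Cbr-klp-16.2, kinesin motor genes, flank CBG12676. Cbr-klp-16.2 had 1.69, 3.41 and 3.62 CPM in gu167, 1.26, 3.58 and 2.66 CPM in gu163, against 0.104, 0.249 and 0.0939 CPM in AF16, a rise of 3.86 ± 0.54 (edgeR adjusted p = 0.00333) and 3.76 ± 0.54 (adjusted p = 0.0022). Cbr-klp-16.1 had 2.01, 2.199 and 2.65 CPM in gu167, 1.38, 1.47 and 1.20 CPM in gu163, against 1 count in all of AF16, with count ratios of 72.4 (12.6 to 2896) and 43.4 (7.38 to 1755). The 2 kinesin genes may share reads if they are near-identical, which was not tested.

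Cbr-nduf-2.2, a subunit of mitochondrial complex I, lies beside CBG19684 and was well measured in wild type. It had 36.5, 37.0 and 35.2 CPM in gu167, 45.3, 43.6 and 40.5 CPM in gu163, against 12.4, 10.6 and 12.01 CPM in AF16. It rose by 1.36 ± 0.19 in gu167 (edgeR adjusted p = 0.0041) and by 1.72 ± 0.20 in gu163 (adjusted p = 0.000585). CBG19684 itself had 16.4, 26.6 and 27.8 CPM in gu167, 15.4, 23.1 and 21.1 CPM in gu163, against 3.95, 2.98 and 1.13 CPM in AF16. Both genes had every mutant library above every AF16 library, which for CBG19684 is set by the rule.

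The 3 neighbours called lower in gu163, named because they are few, lie beside members, which by the rule are all higher there than in AF16. Cbr-ham-1, beside CBG26540, encodes in C. elegans a protein needed for asymmetric divisions of neuroblasts. It had 10.1, 10.5 and 14.1 CPM in gu167, 4.81, 3.94 and 5.49 CPM in gu163, against 8.31, 8.37 and 10.1 CPM in AF16, and fell by 1.10 ± 0.26 in gu163 against AF16 (edgeR adjusted p = 0.0266). That call was lost when gu163 replicate 2 (0.0902), gu163 replicate 3 (0.0726) or AF16 replicate 3 (0.0562) was left out. CBG13128, beside CBG13129, fell by 1.08 ± 0.26 in gu163 (edgeR adjusted p = 0.0257), a call lost without AF16 replicate 1 or any gu163 library (0.0520 to 0.0844). Cbr-ard-1, a dehydrogenase gene beside CBG06016, fell by 0.71 ± 0.19 in gu163 (edgeR adjusted p = 0.0388), a call lost without any AF16 library, gu163 replicate 2 or 3, or gu167 replicate 2 (0.0585 to 0.143). All 3 calls were also lost with library totals only (0.0659 to 0.166). These 3 of 97 tested neighbours are a share close to the 2.94% of all genes called lower in gu163.

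Neighbours of members that differed between the mutants were looked at in the same comparison. Beside the 9 members higher in gu167 stood 14 tested non-members, of which 3 were called higher in gu167, where 5.13% of all genes were, none lower, and 13 had the sign of the member. CBG23415, beside CBG23414, had 7.63, 8.02 and 10.5 CPM in gu167, 1.26, 1.38 and 1.20 CPM in gu163, against 0.831, 0.166 and 0 CPM in AF16, and differed between the mutants by 2.65 ± 0.46 (edgeR adjusted p = 0.00768). CBG08227, beside CBG08228, had 2.49, 3.41 and 3.74 CPM in gu167, 0.115, 0.642 and 0.686 CPM in gu163, against 1 count in all of AF16, a difference of 2.56 ± 0.48 (edgeR adjusted p = 0.00948). CBG04124, beside CBG04125, had 1.53, 2.77 and 2.65 CPM in gu167, 0.115, 0.550 and 0.257 CPM in gu163, against 0 counts in AF16, a difference of 2.73 ± 0.50 (edgeR adjusted p = 0.0120). This last call was lost without gu163 replicate 3 (0.0531) or gu167 replicate 2 (0.0512). For all 3 genes the mutant libraries did not overlap, as for the members beside them. Beside the 7 members lower in gu167, 7 non-members were tested. Of these, CBG23492 and Cbr-srh-25, which flank the same pair of members, were called lower in gu167, where 8.33% of all genes were. None was called higher, and 5 had the sign of the member. The median log2 fold change of gu167 over gu163 was 0.02 over all genes tested, so both signs were common. Of the 76 tested neighbours of members with no call, 10 were called either way, a share close to the 13.5% of all genes.

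The members were spread unevenly over the chromosomes of assembly CB4. Chromosome I held 25 of them (31.2%), where it held 16.4% of the other 6240 genes without a symbol at the same minimum. Chromosome II held 13, III held 17, IV held 9 and V held 16. None was on X, where 979 of the other genes (15.7%) lie. The 54 genes with a symbol that met the same numbers showed 24 on chromosome I (44.4%) and likewise none on X. Of all 4585 genes with a symbol at that minimum, 18.15% lie on I and 15.51% on X. Among the 86 genes chosen without AF16 replicate 3 and gu167 replicate 3, 1 was on X.

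**Figure D4:**
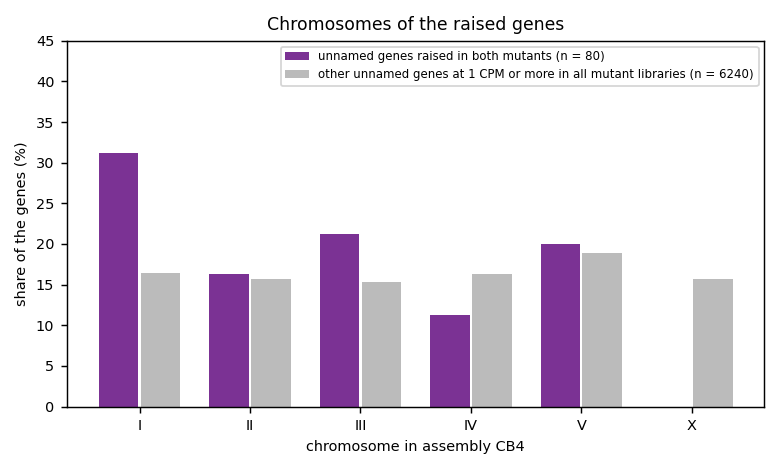
Share of genes on each chromosome of assembly CB4, in percent, for the 80 raised genes without a symbol (left bars) and the other 6240 genes without a symbol at 1 CPM or more in all mutant libraries (right bars). The raised genes hold 31.2% on chromosome I, against 16.4%, and none on X, against 15.7%.

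Since members carry no symbol, none of them can be on a list of named marker genes, and such lists were read beside them. The 54 genes with a symbol that met the same numbers had median levels of 7.84 CPM in gu167, 7.62 CPM in gu163 and 0.877 CPM in AF16. Of these, 20 are on the germline, oocyte or sperm list, of which 33, 18 and 16 genes were found. The share of all genes with a symbol at that minimum that are on these lists was not counted. Of 33 germline and P granule genes found, 30 were tested, with 16 higher in gu167 and 20 higher in gu163 than in AF16 and none lower. Over all genes tested, 1.97% were higher in gu167 and 6.36% in gu163, and 0.128% and 2.94% were lower. Of the 33 genes, 13 met the numbers used for the members. Its summed level was 373 to 454 CPM in gu167, 326 to 406 CPM in gu163 and 219 to 237 CPM in AF16. The oocyte and eggshell list summed to 567 to 633 CPM in gu167, 519 to 564 CPM in gu163 and 439 to 626 CPM in AF16, and 6 of 15 tested genes were higher in each mutant. The sperm list summed to 47.1 to 65.9 CPM in gu167, 65.3 to 110 CPM in gu163 and 25.999 to 41.8 CPM in AF16. Of its 6 tested genes, 2 were higher in gu167 and 4 in gu163. Only 16 of its 55 genes were found, and 6 of the 16, Cbr-spe-4 and Cbr-spe-9 among them, were at 0 in AF16. Of these 6, 2 were at 0 in the mutants as well.

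Markers of other tissues moved differently. The 5 yolk protein genes summed to 50.8, 14.5 and 427 CPM in gu167, 20.1 to 38.8 CPM in gu163 and 48.3 to 60.9 CPM in AF16, with no call, and gu167 replicate 3 stood alone. The 27 hypodermis and cuticle genes summed to 4061 to 6972 CPM in gu167, 14737 to 31013 CPM in gu163 and 10753 to 14955 CPM in AF16. Of these genes, 12 were lower in gu167 than in gu163, where 8.33% of all genes were. In gu163 against AF16, 2 were higher, where 6.36% of all genes were. Of the intestine, muscle and neuron lists, no gene was called higher or lower in gu167 against AF16, while 1, 2 and 2 were higher in gu163 and 1 neuron gene was lower there. In gu167 against gu163, 5 of 15 tested intestine genes and 2 of 34 neuron genes were lower, where 8.33% of all genes were. No muscle gene was called in that comparison. The part of germline, sperm or cuticle content in the levels of the 80 genes was not tested.

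**Figure D5:**
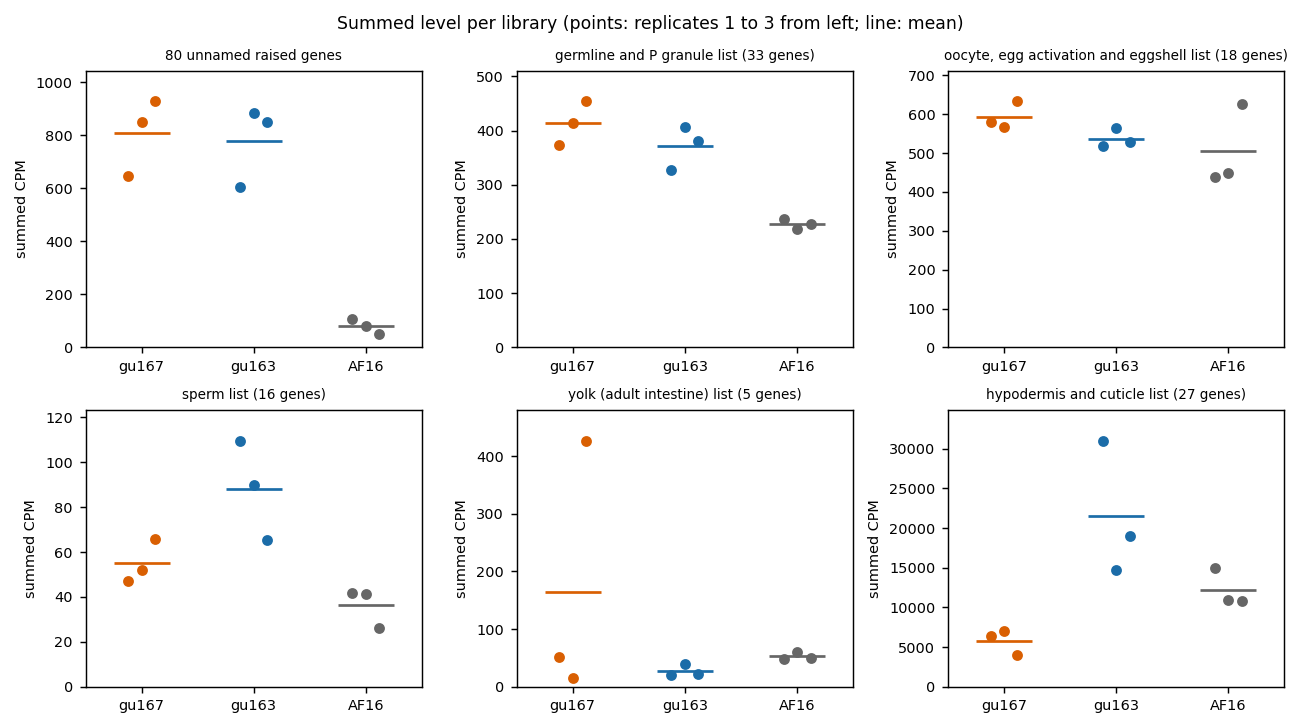
Summed CPM per library of the 80 raised genes and of 5 marker lists, with points for replicates 1 to 3 and a line for the mean of each strain. The raised genes sum to 606 CPM or more in every mutant library and to 107 CPM or less in AF16, and the germline list is higher in every mutant library than in AF16, while the oocyte list overlaps.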

How the data were processed

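RNA-seq of 9 C. briggsae libraries was used, 3 for each of gu167, gu163 and AF16. The authors deposited raw read counts per gene, with no normalization. Per the submitters' processing notes, the tools included STAR, Trim Galore, FastQC and DESeq, with no versions. Strandedness, counter, annotation and genome build were not given in the sources used here. Symbols, gene order and chromosome names came from the RefSeq gene table of assembly CB4, which matched 22727 of 22922 identifiers.

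The 80 members, the marker lists and the alternatives were chosen with earlier results of these data known. CPM used library totals. Tests used edgeR 4.0.16 in R 4.3.3 on the deposited counts, with TMM scaling, its expression filter (minimum count 10), robust quasi-likelihood fits and F tests, in 1 fit of 3 groups and 12507 genes. The Benjamini-Hochberg method adjusted p-values over all genes tested, with a threshold of 0.05. The labels print the submitters' false discovery rate as 0.05%, so 0.0005 was run as an alternative. Standard errors came from the F statistic. Library totals as the only scaling moved the median log2 fold change of all genes by 0.27 (gu167 against AF16), 0.16 (gu163 against AF16) and 0.11 (gu167 against gu163) from its TMM value. Counts of members or neighbours are read against the share of all genes called.

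Genes were named by a rule. It took the 6 highest members in the mutants, the 6 with the largest ratio of lowest mutant to highest AF16 library, the 4 highest in AF16, up to 4 called each way between the mutants by smallest adjusted p, the members of the 5 longest groups of neighbours, the 3 genes nearest the ratio limit on each side, and the 6 neighbours with the smallest larger adjusted p among those higher in both mutants. Others are said to be chosen after their values were seen, among them CBG12676, CBG13131, CBG19684, CBG21912, CBG23415, CBG08227, CBG04124, CBG23492 and Cbr-srh-25.

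Alternatives were DESeq2 1.42.0, limma-voom (limma 3.58.1), other scalings, other filters and thresholds, a replicate block and leaving out each library. The steps were tested on simulated counts. Replicate pairs differed by more than sampling noise (chi-square per gene 17.3 to 79.2). Protein families and promoter motifs were not analysed here.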

Additional observations from a re-analysis of the deposited data

Results flagged for a closer look

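For 16 of the 80 genes, the rise over AF16 differed in size between the mutants by edgeR's test of gu167 against gu163 (Benjamini-Hochberg adjusted p under 0.05 over all genes tested), where 13.5% of all genes differed. Values are log2 fold changes of gu167 over gu163, with adjusted p from the same edgeR fit.

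Lower in gu167 were CBG23490 (-3.46, adjusted p = 2.16e-05), CBG23491 (-3.34, adjusted p = 0.000269) and CBG01371 (-3.21, adjusted p = 2.16e-05). Smaller differences in this direction were those of CBG21913 (-1.66, adjusted p = 0.0118), CBG09715 (-1.38, adjusted p = 0.0240), CBG09436 (-1.18, adjusted p = 0.00832) and CBG02193 (-1.16, adjusted p = 0.00866). In all 7 the highest gu167 library lay below the lowest gu163 library, as it did for 15.4% of all genes tested.

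Higher in gu167 were CBG23414 (1.68, adjusted p = 0.00732), CBG14962 (1.63, adjusted p = 0.0130), CBG04125 (1.22, adjusted p = 0.0244), CBG06273 (1.16, adjusted p = 0.0226) and CBG08228 (1.11, adjusted p = 0.00984). Below these came CBG02851 (0.97, adjusted p = 0.0263), CBG02250 (0.94, adjusted p = 0.0226), CBG08556 (0.94, adjusted p = 0.0228) and CBG12533 (0.75, adjusted p = 0.0161). In all 9 the lowest gu167 library lay above the highest gu163 library, as it did for 18.9% of all genes tested. CBG23490 and CBG23491 are neighbours, and CBG23492 and Cbr-srh-25 beside them differed in the same direction.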

How the results depend on the processing

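The number of genes chosen depended on the limits of the rule. It was 30 at a minimum of 5 CPM, 52 at a ratio of 3 and 32 at a ratio of 4. With a library left out it was 80 to 114, where the rule can only keep or add genes. On TMM-scaled CPM 77 genes were chosen, 71 of them among the 80. Between the mutants, 0 members were called higher and 3 lower in gu167 at an adjusted p under 0.0005, and 3 higher and 4 lower with library totals only. Leaving out 1 library gave 2 to 11 higher and 6 to 9 lower. Among non-member neighbours, leave-one-out counts were 14 to 24 higher and 0 to 3 lower in gu163, and 12 to 16 higher and 0 lower in gu167. With library totals only, 0 neighbours were lower in gu163. For these alternative fits and thresholds the shares of all genes called were not counted. Without AF16 replicate 3 and gu167 replicate 3, libraries named after the data were seen, 86 genes were chosen with 1 on the X chromosome. All 80 were kept, as leaving out libraries cannot remove a gene. The cause of these shifts was not tested. DESeq2, limma-voom, the other scalings, the filter and the mutant libraries alone left each of these counts within 1.5 times its value. Of members, 26 had another within 2 genes or within 5, 17 were adjacent when overlapping pairs were left out, and 16 to 24 were adjacent for the other choices of members.

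No pairing of samples by replicate number is stated in the labels. The correlation of deviations was over 0.1 in 3 of 9 pairs (-0.29 to 0.28). Between gu167 and gu163 it was 0.24, -0.08 and 0.28 for replicates 1 to 3. With 3 libraries per group these values cannot show whether replicates were paired. With the replicate number as a block, 8 members were higher and 6 lower in gu167 than in gu163, with CBG04125 (adjusted p = 0.0533, edgeR) and CBG09715 (0.0510) no longer called. The block also gave 13 and 18 neighbours higher in gu167 and gu163. Neighbours on the same strand and protein families were not run, as no strand or protein table was used here. Depth limits the AF16 levels, with a median of 21 counts over 3 libraries.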
